A study of Ovis aries with 6 samples.

Results

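The genes described here make cholesterol, sense it, and take it up, store it or move it within cells. They were studied in the choroid plexus of the ewe, the tissue whose epithelium secretes cerebrospinal fluid. A list of 29 symbols named them, and a gene was kept when its symbol stood in the count table and its mean over the 6 pools was at least 0.2 CPM, CPM being counts relative to the total of the pool. By this rule 27 genes were kept, of 33609 genes listed in the table. The lowest was STARD4 at a mean of 6.20 CPM, so none lay near the minimum. All 27 were among the 18019 genes with enough counts to be tested. IDI1 was absent under its symbol but was matched by its gene identifier, and its values are given apart. CYP51A1 was not analysed here.

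PolyA RNA came from control ewes in short days (Short), control ewes in long days (Long) and thyroidectomised ewes in long days (THX), with 2 pools per group. The series text states 24 ewes, with 8 per group and 7 in THX, and 3 to 4 ewes mixed in equal amounts in each pool. No age and no hormone level was given in the labels. The total count per pool ran from 48282883 to 82100653, and the lowest count of any of the 27 genes in any pool was 263. Since RNA was pooled, the p-values rest on variation among pools, and variation from ewe to ewe was not measured.

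Pools differed within groups. When the tested genes were reduced to principal components, THX pool 2 lay at 30.9 and Short pool 1 at −28.9 on the first component (37.4% of the variance), and THX pool 1 lay at −31.0 on the second (25.6%). For the cholesterol genes, Short pool 1 had the highest level of the 6 pools for 12 of the 27 genes, but the lowest for 7. THX pool 2 had the lowest for 12 and the highest for 5. THX pool 1 was the highest for 2 and the lowest for 1. The same counts over all tested genes were not made. Of 18 choroid plexus epithelium markers, 17 were in the table, and their summed level was 98930 to 152812 CPM. Such a sum weighs the most abundant markers most, and the share of each marker is not given here. Among the 17 markers the potassium channel subunit KCNE2 was below 1 CPM in every pool. Removal of the thyroid was checked indirectly, on HR and KLF9, which thyroid hormone induces. HR fell from 23.7 and 23.4 CPM in the Long pools to 3.36 and 2.76 CPM in the THX pools (log2 difference −2.94, adjusted p = 0.000835). KLF9 fell from 93.2 and 89.9 to 36.1 and 34.1 CPM (log2 difference −1.38, adjusted p = 0.0053), though without Long pool 2 its adjusted p was 0.0882.

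Cells build cholesterol from acetyl-CoA. The mevalonate steps give farnesyl diphosphate, which squalene synthase and the later enzymes turn into sterols. When membrane sterol is scarce, SCAP escorts the transcription factor SREBP2 (gene SREBF2) to the Golgi for cleavage, and SREBP2 then raises the genes of synthesis and uptake. When sterol is plentiful, the INSIG proteins hold SCAP back, and oxysterols activate the nuclear receptors LXR alpha (NR1H3) and LXR beta (NR1H2), which raise export genes. Lipoprotein cholesterol enters through lysosomes, where LIPA frees it from its esters and NPC2 and NPC1 pass it outward. The brain makes most of its own cholesterol, and the choroid plexus secretes lipoprotein particles into the cerebrospinal fluid. In liver, thyroid hormone is known to raise SREBF2 and cholesterol turnover.

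Both THX and Long ewes were kept in long days, so by the labels their pools differ in removal of the thyroid alone. None of the 27 genes passed the threshold, an adjusted p under 0.05 over all tested genes by the quasi-likelihood test of edgeR, which 51 of 18019 genes (0.283%) passed. At an unadjusted p under 0.05 there were 6 of the 27 genes (9.08% of all tested genes), 2 higher (4.16%) and 4 lower in THX (4.92%). That count was 7 without THX pool 1 and 1 or 2 without any other pool. DESeq2 called 1 of them, NPC2, which was lower in THX (2.49% of all genes called, 1.45% as lower), and limma-voom called 0 against 0.25%. The largest differences were NPC2, at −0.42 on the log2 scale, and INSIG1, at −0.32. The median log2 difference of the 27 genes was −0.015, beside 0.0011 over all tested genes, with 11 genes above 0 (50.3% of all tested genes) and 16 below (49.7%). The groups did not overlap for 13 of the 27 genes (37.2% of all tested genes), of which 6 were higher (18.5%) and 7 lower in THX (18.7%).

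These differences were bounded only under the model of the fit, which takes the same spread for a gene in every group. The median SE was 0.096 on the log2 scale, and for 24 of the 27 genes the whole 95% interval of THX minus Long lay within 0.5 of 0, a fold of 1.41. The exceptions were INSIG1, STARD4 and NPC2. For all 27 the interval lay within 1, a fold of 2, and its furthest bounds were −0.62 and 0.56. The intervals are for single genes and are not adjusted for the number of genes. The median absolute difference of the 27 genes was 0.093 between THX and Long. It was 0.13 between both THX pools and 0.064 between both Long pools. Over all tested genes these values were 0.12, 0.17 and 0.095. The first value is between means of 2 pools and the others are between single pools, so their sizes cannot be compared directly.

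Day length was the difference between Long and Short pools, both from ewes with a thyroid. Again 0 of the 27 genes passed, beside 0 of all tested genes (0%). By unadjusted p under 0.05 there were 6 (13.8% of all tested genes), 3 higher (6.47%) and 3 lower in Long (7.33%). That count moved both down and up when single Short or Long pools were left out, so it depended on single pools. DESeq2 called 0 of the 27 (0.882% of all genes) and limma-voom called 0 (0%). The largest differences were STARD4 at −0.72 and PMVK at −0.58, both lower in Long than in Short pools, and the largest positive one was NR1H3 at 0.28. The median of the 27 genes was −0.034 (all tested genes −0.0025), with 12 genes above 0 (49.7%) and 15 below (50.3%). For 19 of the 27 genes the groups did not overlap (53.5% of all tested genes), 8 with Long higher (26.7%) and 11 with Long lower (26.8%). The interval lay within 0.5 of 0 for 23 genes and within 1 for 25, all but PMVK and STARD4.

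The comparison of THX with Short pools differs in both thyroid and day length. It too had 0 of the 27 genes past the threshold, which 165 genes (0.916%) passed. Here 10 of the 27 had an unadjusted p under 0.05 (22.6% of all tested genes), 4 higher (10.8%) and 6 lower in THX (11.8%). That count was 16 without THX pool 1, 3 without Short pool 1, 5 without THX pool 2 and 6 without Long pool 1. DESeq2 called LSS, STARD4 and NPC2, all lower in THX (9.77% of all genes called, 4.88% as lower), and limma-voom called 0 (0.977%). Without THX pool 1, edgeR called PMVK and LSS, both lower in THX (adjusted p = 0.0469 for each), when 1087 genes were called. The median of the 27 genes was −0.10 (all tested genes −0.0081), with 11 above 0 (49%) and 16 below (51%), and it was −0.031 without THX pool 2, −0.16 without THX pool 1 and −0.054 without Short pool 1. The groups did not overlap for 17 of the 27 genes (52.5% of all tested genes), 6 with THX higher (25.7%) and 11 with THX lower (26.7%). The 3 comparisons share pools, so they are not independent of each other. Some genes are described below by 1 group lying apart from the other 4 pools, or by all 3 groups lying apart. The share of all tested genes with either pattern was not counted.

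**Figure D1:**
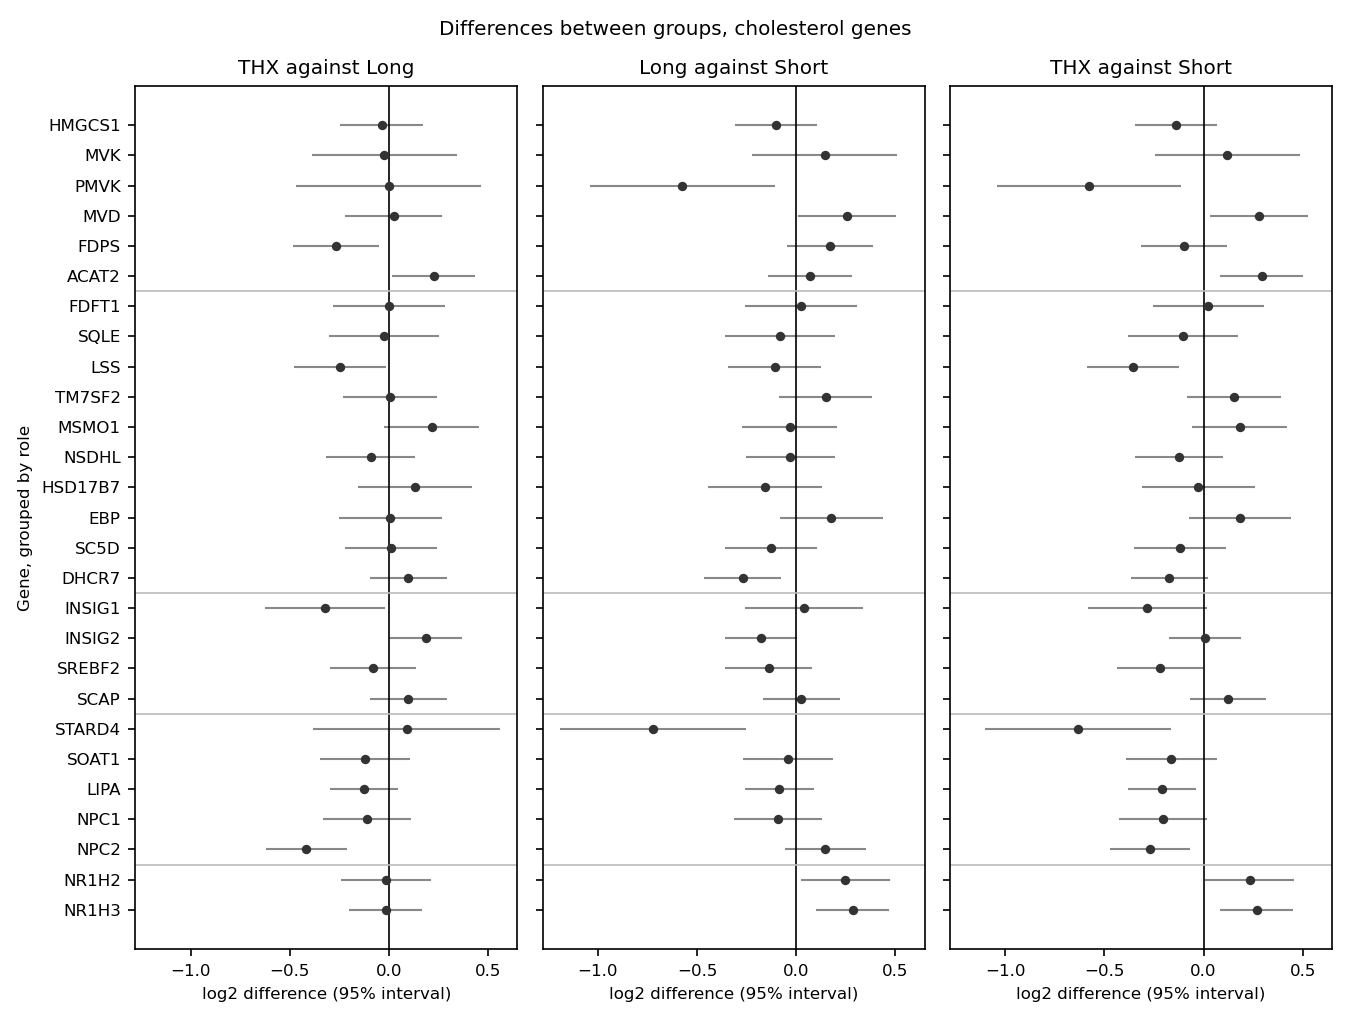
Log2 difference of each of the 27 cholesterol genes (points) with its 95% interval (bars) in the 3 comparisons, with genes grouped by role from synthesis at the top to LXR receptors at the bottom. Most intervals of THX against Long span 0, with NPC2 farthest to the left at −0.42. STARD4 and PMVK lie farthest to the left in both comparisons with Short.

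The first group of enzymes leads from acetyl-CoA to farnesyl diphosphate. HMGCS1, which makes the HMG-CoA that is reduced to mevalonate, was at 54.1 and 50.4 CPM in Short, 48.2 and 49.3 in Long and 50.3 and 44.7 in THX pools. The Long pools lay inside the range of the THX pools (log2 difference −0.038, 95% interval −0.24 to 0.17). ACAT2, the cytosolic thiolase before it, was at 23.3 and 23.2 CPM in Short, 24.0 and 24.8 in Long and 27.2 and 29.8 in THX. The THX pools exceeded the other 4, at a difference from Long of 0.22 (95% interval 0.014 to 0.43, adjusted p = 0.518) and from Short of 0.29 (adjusted p = 0.138).

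FDPS, the synthase of farnesyl diphosphate, went the other way. It was at 23.3 and 24.8 CPM in Short, 27.0 and 27.1 in Long and 23.4 and 21.5 in THX. The Long pools were above the other 4, and THX minus Long was −0.27 (95% interval −0.48 to −0.051, adjusted p = 0.434). MVK, the first kinase of mevalonate, spread as far within groups as between them, with Long pools at 12.2 and 15.2 CPM and THX pools at 12.3 and 14.7.

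The next kinase, PMVK, was at 19.5 and 15.8 CPM in Short, 11.4 and 12.3 in Long and 14.0 and 9.70 in THX. Both Short pools were above the other 4. The difference from Short was −0.58 for Long (95% interval −1.04 to −0.11, adjusted p = 0.342) and −0.58 for THX (adjusted p = 0.16), while THX minus Long was −0.0023. The pools of PMVK also differed most within the THX group of all 27 genes, by 0.53, and within the Short group, by 0.31. MVD, the decarboxylase that follows, had the opposite order, with 24.8 and 27.8 CPM in Short, 32.9 and 29.9 in Long and 30.3 and 33.5 in THX. Both Short pools were the lowest (Long minus Short 0.26, adjusted p = 0.354). PMVK and MVD thus lay on opposite sides of 0 between day lengths, and the difference between these genes was not tested. IDI1, the isomerase after MVD, was at 190.0 and 173 CPM in Short, 172 and 175 in Long and 168 and 142 in THX (THX minus Long −0.16, 95% interval −0.39 to 0.071, adjusted p = 0.74).

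**Figure D2:**
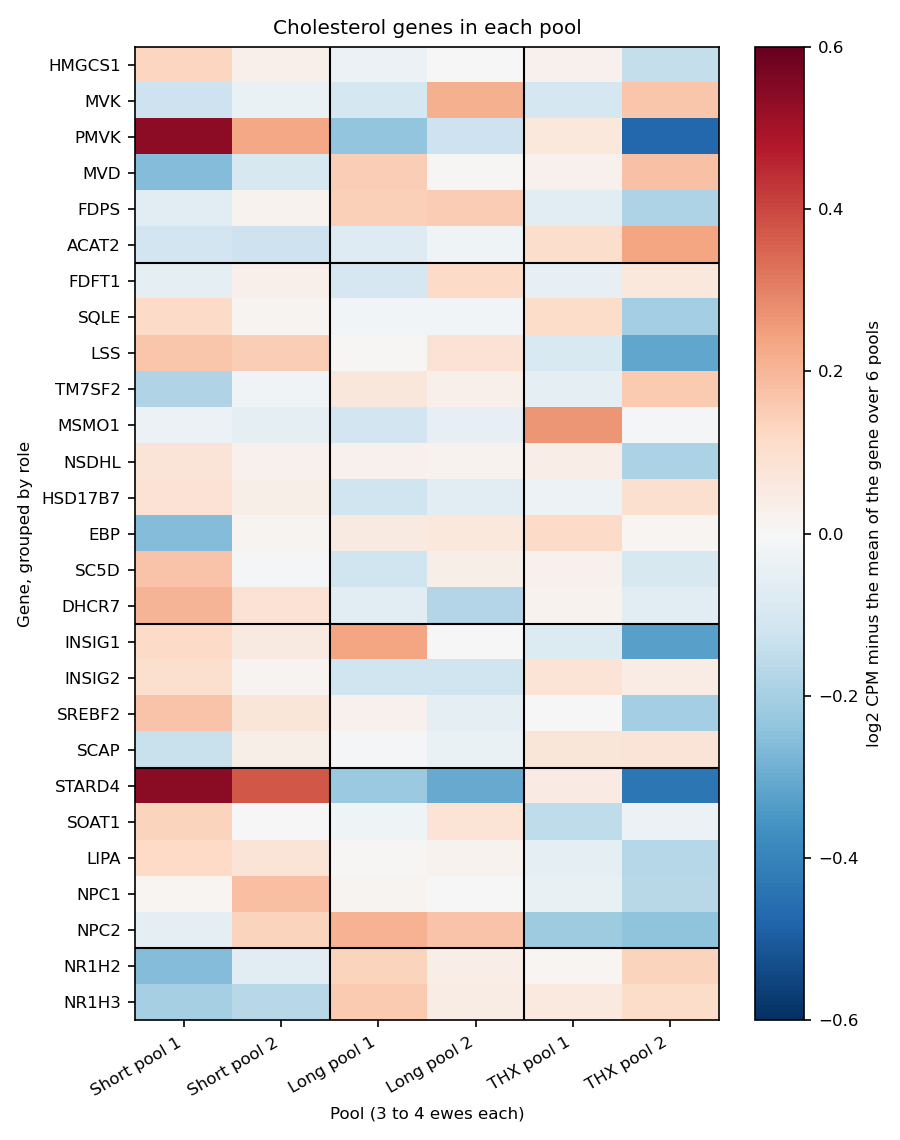
Log2 CPM of each cholesterol gene in each pool minus the mean of that gene over the 6 pools, with red for higher and blue for lower, genes in rows grouped by role and pools in columns. Of the 27 genes, 12 were highest and 7 lowest in Short pool 1, and 12 were lowest and 5 highest in THX pool 2. No such counts were made over all tested genes. PMVK and STARD4 are darkest, and most other genes vary little.

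None of the 10 tested enzymes from squalene to cholesterol passed between THX and Long pools. Their log2 differences ran from −0.25 to 0.22, with a median of 0.0056. Of the 10, 6 lay above 0 (50.3% of all tested genes) and 4 below (49.7%). FDFT1, the squalene synthase that commits carbon to sterols, was at 15.3 and 16.2 CPM in Short, 14.8 and 17.2 in Long and 15.4 and 16.6 in THX, so all groups overlapped. Its THX minus Long difference was −0.00032 (95% interval −0.28 to 0.28). SQLE, the squalene epoxidase, was at 30.03 and 28.0 CPM in Short, 27.5 and 27.5 in Long and 29.9 and 24.1 in THX. The Long pools lay between the THX pools. TM7SF2, a sterol reductase, was at 56.1 and 62.7 CPM in Short, 66.6 and 65.0 in Long and 61.2 and 70.8 in THX, again with Long between both THX pools.

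LSS, which closes squalene epoxide into lanosterol, was the member of this group with the largest difference between THX and the other pools. It was at 35.2 and 34.7 CPM in Short, 31.5 and 33.4 in Long and 29.4 and 25.2 in THX. Both THX pools were below the other 4. THX minus Long was −0.25 (95% interval −0.48 to −0.013, adjusted p = 0.523) and THX minus Short −0.36 (95% interval −0.59 to −0.12, adjusted p = 0.12). DESeq2 gave 0.0403 for the latter, and the 16 alternatives ran from there to 0.40.

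MSMO1, the sterol methyl oxidase, lay on the other side. It was at 81.6 and 80.1 CPM in Short, 77.2 and 80.7 in Long and 100.3 and 83.1 in THX. The THX pools were the highest, although THX pool 1 alone stood well apart (THX minus Long 0.22, 95% interval −0.023 to 0.46, adjusted p = 0.604). NSDHL, which acts with MSMO1 in removing methyl groups, was at 45.0 and 44.9 CPM in Long and 45.6 and 38.8 in THX, and only THX pool 2 was away from the rest. HSD17B7, the ketoreductase of the same step, ran from 10.1 to 11.7 CPM over the 6 pools. EBP, the sterol isomerase, ran from 30.2 to 32.4 CPM in all pools but Short pool 1, which was lower. SC5D, the desaturase after it, ran from 90.5 to 111 CPM, with groups that overlapped in all 3 comparisons.

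DHCR7, the reductase that completes cholesterol, was at 309 and 285 CPM in Short, 256 and 237 in Long and 272 and 256 in THX. The Short pools were above the other 4. Long minus Short was −0.27 (95% interval −0.46 to −0.077, adjusted p = 0.342) and THX minus Short −0.17 (adjusted p = 0.259). THX minus Long was 0.098, with a 95% interval of −0.096 to 0.29.

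Of the sterol sensing genes, the gene of SREBP2 itself, SREBF2, was at 243 and 227 CPM in Short, 219.9 and 207 in Long and 216 and 188 in THX. Its THX and Long pools overlapped (THX minus Long −0.081, 95% interval −0.30 to 0.14, adjusted p = 0.912). THX minus Short was −0.22 (95% interval −0.44 to −0.0022, adjusted p = 0.217). SCAP was at 81.3 and 91.4 CPM in Short, 88.8 and 86.9 in Long and 94.0 and 94.1 in THX. Both THX pools were above the other 4, by 0.098 relative to Long (adjusted p = 0.851).

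The INSIG genes differed from each other in direction. INSIG1, a target of SREBP2 that retains SCAP, was at 21.9 and 20.9 CPM in Short, 23.7 and 20.2 in Long and 19.1 and 16.1 in THX. The lowest levels were those of THX, and THX minus Long was −0.32 (95% interval −0.62 to −0.021, adjusted p = 0.514). INSIG2, which has the same role without being a main SREBP2 target, was at 36.2 and 34.3 CPM in Short, 31.1 and 31.2 in Long and 35.9 and 35.0 in THX. Its Long pools were the lowest, and THX was above Long by 0.18 (95% interval 0.0012 to 0.37, adjusted p = 0.548) and differed from Short by 0.0071 (95% interval −0.18 to 0.19). The difference between the INSIG genes was not tested.

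**Figure D3:**
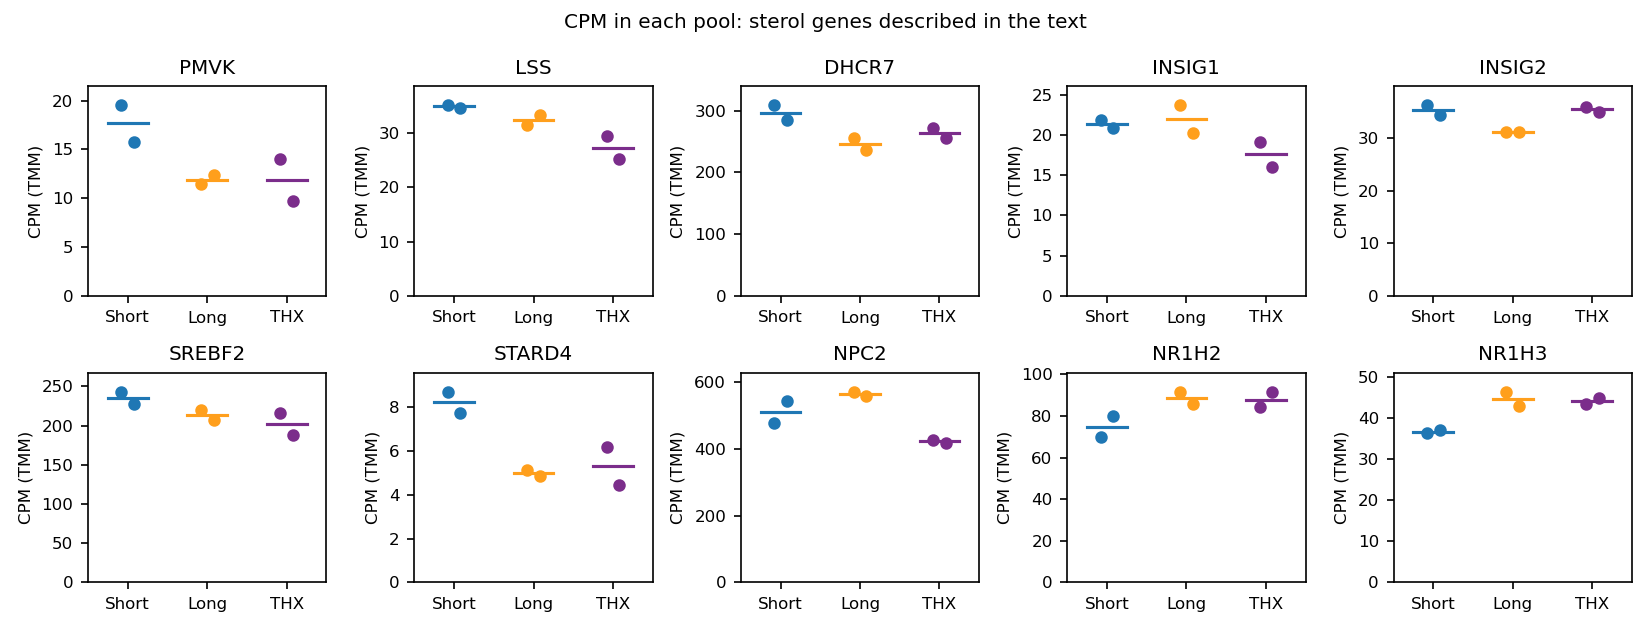
CPM scaled by TMM in each pool (points) and the group mean (lines) for 10 cholesterol genes in Short, Long and THX, on axes that start at 0. NPC2 is lowest in both THX pools (426 and 418 CPM). STARD4 and PMVK are highest in both Short pools, and NR1H2 and NR1H3 lowest there.

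Of the genes of uptake, storage and transport, 4 of 5 lay below 0 in THX against Long pools (49.7% of all tested genes), with a median of −0.12. NPC2, the soluble lysosomal protein that binds cholesterol and hands it to NPC1, was at 476 and 543 CPM in Short, 571 and 556 in Long and 426 and 418 in THX. Both THX pools were below the other 4. THX minus Long was −0.42 (SE 0.086, 95% interval −0.62 to −0.21, adjusted p = 0.177), and this gene ranked at 196 of 18019 by p. DESeq2 called it (adjusted p = 0.00168). Its difference stayed between −0.46 and −0.40 in all 16 alternatives, of which only DESeq2 passed, and the highest adjusted p was 0.834. THX minus Short was −0.27 (adjusted p = 0.146, and 0.049 by DESeq2). The summed level of the macrophage markers, of which 10 of 12 were in the table and none stayed under 1 CPM in every pool, was 206 and 239 CPM in Short, 260 and 273 in Long and 222 and 235 in THX. That of 13 fibroblast and leptomeninges markers, of which DPEP1 and DPT stayed under 1 CPM, was 1767 and 1905, 1777 and 1675, and 1383 and 1441 CPM. Sums of pericyte and smooth muscle, oligodendrocyte, lymphocyte and mast cell markers were also lower in both THX than in both Long pools. Those of epithelium, neuron and ependymal markers were higher, and those of endothelium, astrocyte and red blood cell markers overlapped. Most neuron and mast cell markers stayed under 1 CPM in every pool. The part of any of these lists in the NPC2 values was not tested. In bulk tissue, fewer cells of a type cannot be told apart from less RNA per cell.

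NPC1, the membrane protein that receives this cholesterol, was at 31.9 and 35.9 CPM in Short, 31.9 and 31.6 in Long and 30.6 and 28.2 in THX. The THX pools were the lowest, but the difference from Long was small (−0.11, 95% interval −0.33 to 0.11, adjusted p = 0.852). LIPA, the lysosomal acid lipase, was at 261 and 253 CPM in Short, 241 and 244 in Long and 231 and 213 in THX. The 3 groups did not overlap, with Short the highest and THX the lowest (THX minus Short −0.21, 95% interval −0.38 to −0.039, adjusted p = 0.162). SOAT1, which makes cholesterol esters for storage, was at 29.8 and 27.1 CPM in Short, 26.6 and 28.7 in Long and 24.4 and 26.5 in THX (THX minus Long −0.12, adjusted p = 0.84).

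STARD4, a cytosolic sterol carrier that is itself a target of SREBP2, was at 8.69 and 7.73 CPM in Short, 5.12 and 4.84 in Long and 6.18 and 4.43 in THX. Both Short pools were well above the other 4. Long minus Short was −0.72 (SE 0.20, 95% interval −1.19 to −0.25, adjusted p = 0.342, and 0.0831 by DESeq2), the largest difference among the 27 genes in any comparison. THX minus Short was −0.63 (95% interval −1.10 to −0.17, adjusted p = 0.142, with 0.0476 by DESeq2 and up to 0.478 over the 16 alternatives). THX minus Long was 0.089, with an interval of −0.38 to 0.56. All 5 genes of this role lay below 0 in THX against Short pools (51% of all tested genes), with none past the threshold.

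Both LXR genes had their lowest levels in the Short pools. NR1H3 was at 36.3 and 37.1 CPM in Short, 46.5 and 42.9 in Long and 43.3 and 45.0 in THX. NR1H2 was at 69.7 and 80.0 CPM in Short, 91.8 and 85.9 in Long and 84.3 and 91.5 in THX. Their Long and THX pools overlapped. Long minus Short was 0.28 for NR1H3 (95% interval 0.10 to 0.47, adjusted p = 0.342) and 0.25 for NR1H2 (95% interval 0.022 to 0.47, adjusted p = 0.349). THX minus Short was 0.27 and 0.23 (adjusted p = 0.13 and 0.21). THX minus Long was −0.018 for NR1H3 (95% interval −0.20 to 0.17) and −0.015 for NR1H2 (95% interval −0.24 to 0.21). The summed epithelium markers were also lowest in Short, at 98930 and 104373 CPM against 119143 and 121073 in Long and 130558 and 152812 in THX, and their part in these differences was not tested.

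Other genes of sterol metabolism were read from lists. Of 8 further tested genes of sterol synthesis none passed in any comparison. LBR, a nuclear envelope protein that is also a sterol reductase, was at 14.6 and 14.2 CPM in Long and 12.5 and 10.7 in THX (log2 difference −0.31, adjusted p = 0.523). EBPL, a relative of EBP, lay 0.33 higher in Long than in Short pools (adjusted p = 0.361). Of 14 genes that use isoprenoids for purposes other than sterols none passed either. In THX against Long pools 13 of the 14 lay below 0 (49.7% of all tested genes), at a median of −0.051. Only 1 of the 14 was lower at an unadjusted p under 0.05 (4.92%), and 0 were higher (4.16%). FNTB, the catalytic subunit of protein farnesyltransferase, was at 48.3 and 44.9 CPM in Short, 40.7 and 43.8 in Long and 31.6 and 34.3 in THX. Both THX pools were below the other 4 (THX minus Short −0.50, adjusted p = 0.0567; THX minus Long −0.36, adjusted p = 0.238). RABGGTB, a subunit of the enzyme that prenylates Rab proteins, lay 0.34 higher in Long than in Short pools (adjusted p = 0.342).

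Of 19 further genes of the SREBP pathway, 1 passed, in THX against Short pools (0.916% of all tested genes). MYLIP, a ubiquitin ligase induced by LXR that degrades lipoprotein receptors, was at 40.8 and 42.2 CPM in Short, 42.5 and 41.3 in Long and 28.8 and 26.5 in THX. The THX pools were lowest, and the other 4 lay close together. It fell from Short to THX pools (log2 difference −0.59, SE 0.081, adjusted p = 0.0331). THX minus Long was −0.60 (adjusted p = 0.0537), just above the threshold, and over the 16 alternatives it ran from 3.58e-06 with DESeq2 to 0.404, with 4 past the threshold. The call against Short was lost without either Short pool, either Long pool or THX pool 2 (adjusted p from 0.097 to 0.167), at log2 differences of −0.61 to −0.52, and held without THX pool 1. With only the 4 pools compared the adjusted p was 0.118. MBTPS2, a protease that cleaves SREBPs, lay at −0.34 in Long against Short (adjusted p = 0.342), and RNF145, a ubiquitin ligase that acts on SCAP, at 0.24 in THX against Short (adjusted p = 0.129).

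Of 16 tested genes of sterol export and LXR targets, 1 rose and 1 fell in THX against Long pools (0.283% of all tested genes called), and 1 rose and 2 fell against Short (0.916%), MYLIP being on this list too. No other gene of the list passed in any comparison. The median of the list was −0.075 in THX against Long, with 6 above 0 (50.3% of all tested genes) and 10 below (49.7%). It was −0.13 in THX against Short, with 5 above 0 (49%) and 11 below (51%). MLXIPL, a sugar-sensing transcription factor that LXR also induces in liver, fell from 119 and 120.3 CPM in Long to 42.7 and 47.9 in THX (log2 difference −1.40, adjusted p = 0.00759), and stood at 128 and 110 in Short. Without Long pool 1 or 2 its adjusted p was 0.0636 and 0.0956. APOA1, the main protein of high-density lipoprotein and an acceptor of exported cholesterol, rose from 2409 and 2041 CPM in Long to 4151 and 3802 in THX (log2 difference 0.84, adjusted p = 0.0361), and was at 1861 and 1769 in Short (THX minus Short 1.13, adjusted p = 0.0145). Whichever pool was omitted, the call against Long was lost (adjusted p from 0.0564 to 0.329), as it was with total counts (0.0503) and with only the 4 pools compared (0.0836). The call against Short was lost without Short pool 1 or 2 (adjusted p = 0.0843 and 0.07) and with only the 4 pools compared (0.061).

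**Figure D4:**
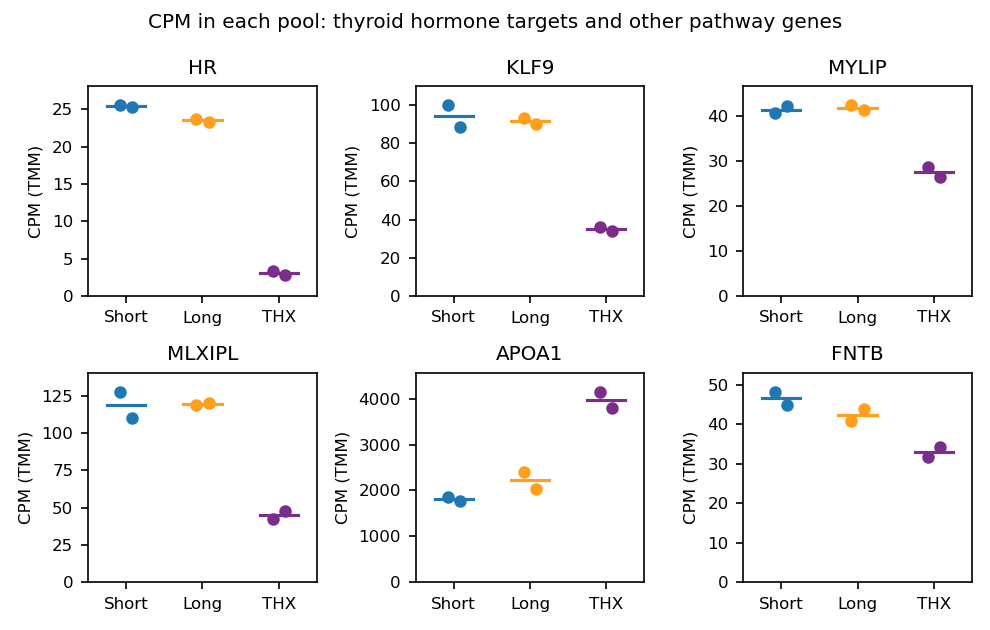
CPM scaled by TMM in each pool (points) with group means (lines) for HR and KLF9, the thyroid hormone targets, and for MYLIP, MLXIPL, APOA1 and FNTB, on axes that start at 0. In all but APOA1 both THX pools are below the other 4, and in APOA1 both are above.

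None of 17 tested receptors and enzymes of lipoprotein uptake passed. In THX against Long pools 5 of them were higher at an unadjusted p under 0.05 (4.16% of all tested genes) and 0 were lower (4.92%), with a median of 0.11. SORL1, a sorting receptor, was at 85.2 and 66.5 CPM in Short, 70.3 and 72.0 in Long and 87.3 and 112 in THX. Its THX minus Long difference was 0.49 (adjusted p = 0.387). SCARB2, a lysosomal membrane protein that can carry cholesterol, lay at 0.27 in THX against Long (adjusted p = 0.441). SCARB2 was at 169 and 144 CPM in Short, 143 and 137 in Long and 174 and 163 in THX, so Short and THX overlapped. PLTP, the phospholipid transfer protein, was at 1868 and 1912 CPM in Short, 2142 and 2222 in Long and 2452 and 2615 in THX. Its 3 groups did not overlap (THX minus Short 0.42, adjusted p = 0.0582). LCAT, which esterifies cholesterol on lipoproteins, lay at 0.23 in Long against Short and NCEH1, a cholesterol ester hydrolase, at −0.32 (adjusted p = 0.342 for both).

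None of 26 further genes of sterol transfer between membranes passed, with medians of −0.0046, 0.024 and 0.044 in THX against Long, Long against Short and THX against Short. TMEM41B, a scramblase of the endoplasmic reticulum, was at 28.5 and 25.2 CPM in Short, 23.1 and 26.1 in Long and 19.8 and 19.8 in THX (THX minus Short −0.44, adjusted p = 0.0978). GRAMD1A, a carrier of plasma membrane cholesterol, lay 0.25 higher in Long than in Short pools (adjusted p = 0.342). Of 7 tested genes of oxysterol formation and sterol catabolism, 6 lay above 0 in THX against Long pools (50.3% of all tested genes). Against Short 7 did (49%), and none passed the threshold. The list held 15 genes. CYP27A1, CYP46A1, CYP7B1, CYP7A1, CYP39A1, CYP8B1 and DHRS4 were not matched in the count table, and AKR1D1 was not tested. The counts therefore do not cover these genes. EPHX1, an epoxide hydrolase, was at 921 and 937 CPM in Short, 1026 and 1048 in Long and 1226 and 1380 in THX, with no overlap among the 3 groups (THX minus Short 0.49, adjusted p = 0.0558; THX minus Long 0.33, adjusted p = 0.259). The summed epithelium markers had the same order of groups, from 98930 and 104373 CPM in Short through 119143 and 121073 in Long to 130558 and 152812 in THX. So did PLTP and APOA1, and the part of these markers in the values of EPHX1, PLTP and APOA1 was not tested.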

How the data were processed

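Libraries of polyA RNA from 6 choroid plexus pools were made with a stranded kit, per the labels. The submitters' processing notes name TopHat2 2.1.1, featureCounts 2.0.0, SAMtools 1.9, and bcl2fastq 2.20 with FastQC 0.11.8 and MultiQC 1.9. The values the authors deposited are raw counts per gene. Build, annotation and strand setting were not given in the sources used here. Therefore overlapping genes are uncertain and no coordinates or sequences are shown. Lists were matched by symbol, and APOA1 and IDI1 by identifier in a RefSeq table.

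The main fit used R 4.3.3 and edgeR 4.0.16: default expression filter, TMM scaling, and a quasi-likelihood fit of all 6 pools with a mean for each group (3 residual and 3.96 prior degrees of freedom, common biological coefficient of variation 0.151). Tests were two-sided, with Benjamini-Hochberg adjustment over 18019 genes and a threshold of 0.05. The SE is the log2 difference divided by the root of F. Levels are TMM-scaled CPM, except the selection minimum, which used total counts. Chi-square per degree of freedom between the counts of both pools was 28.5 in Short, 16.2 in Long and 71.4 in THX, so none was a repeat of 1 library. Alternatives used DESeq2 1.42.0, limma-voom 3.58.1, other scalings, filters and priors, only the pools compared, a pool-number term and omission of each pool. All 27 genes, HR, KLF9, and from each further list those called or else at most the lowest 2 by p in a comparison, could be named. Further lists leave out the 27. The members and lists were chosen with earlier results of these data known. Figures used Python 3.11.15 and matplotlib 3.10.9.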

Additional observations from a re-analysis of the deposited data

How the results depend on the processing

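The count of called cholesterol genes stayed at 0 in every alternative run, except DESeq2 (1 in THX against Long, 3 in THX against Short) and omission of 1 pool in THX against Short (0 to 2). Over all genes, the 51 calls in THX against Long became 204 without the filter, 448 with DESeq2, 22 with only the 4 pools compared, and 2 to 37 without 1 pool. The 0 calls in Long against Short became 159 with DESeq2 and 0 to 4 without 1 pool. The 165 calls in THX against Short became 259 with total counts, 908 without the filter, 1761 with DESeq2, 250 with a robust prior, 11 with only the 4 pools compared, and 10 to 1087 without 1 pool. With a replicate block for the pool number they became 392, and the block gave 48 calls in THX against Long and 0 in Long against Short, with 0 of the 27 genes in each. Deviations of same-numbered pools correlated at −0.063, 0.29 and 0.097 (Short with Long, Short with THX, Long with THX), so the numbers were not taken as pairs.

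Scaling by total counts moved the median of all genes in THX against Short to −0.11 and the share of calls that were higher from 34.5% to 18.9%. It moved the median of the 27 genes to −0.064 in THX against Long, −0.084 in Long against Short and −0.20 in THX against Short. Without 1 pool these medians ran from −0.054 to 0.020, −0.075 to −0.021 and −0.16 to −0.031.

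Sign changes touched 14, 5 and 5 of the 27 genes in the 3 comparisons, with main log2 differences of at most 0.14 in size. With total counts THX against Long turned to −0.026 for MVD, −0.046 for TM7SF2, −0.041 for EBP and −0.039 for SC5D; Long against Short to −0.027 for FDFT1, −0.011 for INSIG1 and −0.025 for SCAP; and THX against Short to −0.077 for FDFT1 and −0.091 for INSIG2. FDFT1 in THX against Long turned to 0.0015 with RLE factors, 0.0019 without the filter, 0.0018 with DESeq2, 0.0065 with limma-voom and 0.0017 with the replicate block. Without 1 pool, THX against Long ran from −0.13 to 0.046 for HMGCS1, −0.17 to 0.14 for MVK, −0.29 to 0.24 for PMVK, −0.050 to 0.094 for MVD, −0.10 to 0.11 for FDFT1, −0.19 to 0.13 for SQLE, −0.10 to 0.11 for TM7SF2, −0.21 to 0.022 for NSDHL, −0.046 to 0.058 for EBP, −0.068 to 0.087 for SC5D, −0.19 to 0.020 for SREBF2, −0.17 to 0.31 for STARD4, −0.073 to 0.041 for NR1H2 and −0.074 to 0.041 for NR1H3. Long against Short ran from −0.019 to 0.29 for MVK, −0.083 to 0.13 for FDFT1, −0.081 to 0.16 for INSIG1, −0.057 to 0.11 for SCAP and −0.11 to 0.027 for SOAT1. THX against Short ran from −0.013 to 0.25 for MVK, −0.026 to 0.081 for FDFT1, −0.26 to 0.050 for SQLE, −0.085 to 0.040 for HSD17B7 and −0.032 to 0.048 for INSIG2. The cause of these changes was not tested.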
